A study of Mus musculus with 24 samples.

Results

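Krt7, Krt8, Krt18 and Krt19 encode the simple keratins, and each of these 4 genes was represented by exactly 1 probe on the array. They were chosen by name, as every probe whose gene symbol was one of the 4, out of 25697 probes with 17892 gene symbols in all. All 4 probes were detected on all 24 arrays. Simple keratins form the intermediate filaments of single-layered epithelia, the cytoskeletal cables that let a cell withstand stretching. A filament is built from pairs of a type II and a type I keratin. Krt7 and Krt8 are type II, Krt18 and Krt19 are type I, and Krt8 with Krt18 is the standard pair of such cells. In the mammary gland these keratins mark the inner, luminal layer, while the outer basal (myoepithelial) layer uses Krt5 and Krt14.

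Total RNA of mammary gland cells, all from female mice, was measured on Illumina bead arrays. Mice were SNAI2+/+, called WT here, or SNAI2 LacZ/LacZ, called null here, in which both copies of Snai2 are the LacZ allele. Snai2 encodes Slug, a zinc-finger transcription repressor of the Snail family that is best known for holding down epithelial genes. From each genotype, luminal, basal and stromal cells had been separated by their surface CD49f and Epcam, and unsorted cells were measured beside them. The labels name no treatment and no other allele, and the age of the mice is not stated in them. The 8 groups had 3 arrays each, numbered as the labels number them, and the labels do not say whether the arrays of a group came from separate animals. The p-values therefore measure only the spread between these arrays, which may be technical.

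The arrays had median raw intensities from 93.6 to 143.7 and detected 12634 to 15825 probes at a detection p below 0.05. No Snai2 probe passed the detection filter and no probe carried the symbol Epcam, so neither the targeted gene nor that sorting antigen could be checked. Itga6, which encodes CD49f, had log2 means in WT mice of 9.63 ± 0.15 (SD, n = 3) for basal, 8.42 ± 0.67 for luminal and 5.60 ± 0.98 for stromal cells. Marker genes followed the labels. The mean log2 intensity of 14 luminal markers was 9.24 ± 0.17 in WT luminal, 6.59 ± 0.49 in WT basal and 7.06 ± 0.73 in WT stromal cells, and 11 basal markers averaged 10.26 ± 0.21 in WT basal cells and 12 fibroblast markers 11.01 ± 0.13 in WT stromal cells. Luminal markers were not at background outside the luminal gate: 10 to 13 of the 14 were detected on each basal array and 11 or 12 on each stromal array. Single markers differed in this. In WT stromal cells Aldh1a3 was at 8.41 and Esr1 at 8.15, against 8.71 and 8.82 in WT luminal cells, while Cldn4 was at 4.84 against 8.29. The arrays also fell into 11 and 13 along the third principal component, which held 9.79% of the variance. The 11 held replicates 1 and 2 of all WT groups together with replicate 1 of each sorted null group. No label explains this split, and for part of the results the values on each of its sides are also given.

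The promoters of Krt7, Krt8 and Krt18 are shown because all 3 genes had higher levels in luminal than in basal cells and Snail-family factors are known to bind the letters CACCTG. The promoter set used here (RefSeq, build GRCm38.p6) held an entry for 3 of the 4 genes and none for Krt19. The windows run from 250 bases before the transcription start to 50 after it, 5′ to 3′ on the gene's strand. They lie at chr15:101412153-101412452 on the plus strand for Krt7, at chr15:102004293-102004592 on the minus strand for Krt8 and at chr15:102027966-102028265 on the plus strand for Krt18. Capitals mark CACCTG, searched on both strands (its reverse complement is CAGGTG).
Krt7: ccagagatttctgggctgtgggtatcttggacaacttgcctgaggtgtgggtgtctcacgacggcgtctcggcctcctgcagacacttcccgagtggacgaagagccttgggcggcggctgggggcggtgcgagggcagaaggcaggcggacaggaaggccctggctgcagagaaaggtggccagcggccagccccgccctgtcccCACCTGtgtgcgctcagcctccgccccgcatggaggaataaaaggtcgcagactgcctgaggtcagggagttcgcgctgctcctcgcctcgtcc
Krt8: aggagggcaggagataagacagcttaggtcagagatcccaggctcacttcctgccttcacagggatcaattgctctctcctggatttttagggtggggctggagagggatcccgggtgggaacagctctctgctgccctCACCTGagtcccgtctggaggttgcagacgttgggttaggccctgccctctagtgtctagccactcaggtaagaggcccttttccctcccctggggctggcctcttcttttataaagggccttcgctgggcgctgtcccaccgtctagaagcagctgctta
Krt18: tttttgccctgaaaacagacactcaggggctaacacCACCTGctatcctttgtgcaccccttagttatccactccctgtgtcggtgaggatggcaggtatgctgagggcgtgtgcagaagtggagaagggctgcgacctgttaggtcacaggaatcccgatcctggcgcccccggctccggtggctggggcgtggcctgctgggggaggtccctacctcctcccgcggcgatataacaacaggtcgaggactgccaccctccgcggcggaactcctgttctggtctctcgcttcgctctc
Each window held the motif 1 time, 44 bases before the start in Krt7, 111 before it in Krt8 and 214 before it in Krt18. Of 32851 mouse promoters of this length, 6640 (20.2%) held it, so a match of such a short motif is common, and it does not show a bound site. Krt8 and Krt18 are direct neighbours on chromosome 15, with 0 protein-coding genes between them. Krt7 lies in the same cluster, 23 protein-coding genes from Krt8, and 22 of those 23 are keratins. Krt19 lies on chromosome 11.

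Levels are normalised log2 intensities, and each probe was compared only with itself. Krt8, the type II keratin of the standard pair, read 11.81, 11.72 and 12.05 in WT luminal cells, 10.09, 10.39 and 10.60 in WT basal cells, and 9.31, 10.46 and 8.63 in WT stromal cells. In null cells the Krt8 levels were 11.37, 12.07 and 12.08 in luminal, 9.96, 10.98 and 11.00 in basal, and 9.19, 9.02 and 9.83 in stromal cells. The luminal arrays lay above every basal and stromal array in both genotypes, as they did for the other 3 genes. Of all tested probes, 15.3% separated WT luminal from WT basal arrays in this way, 14.3% did so in null cells, and 18.1% (WT) and 19.8% (null) separated luminal from stromal arrays. Replicate 1 of null luminal and of null basal cells lay below the other arrays of its group, and replicate 2 of WT stromal cells lay above the others of its group and inside the WT basal range.

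Krt18, the type I partner of Krt8, had log2 levels of 12.11, 11.98 and 12.25 in WT luminal, 10.13, 10.27 and 10.39 in WT basal, and 9.89, 9.87 and 8.97 in WT stromal cells. In null cells it read 11.82, 12.15 and 12.22 in luminal, 9.99, 10.93 and 10.92 in basal, and 9.75, 9.42 and 9.90 in stromal cells. For Krt18 the 3 sorted populations did not overlap in either genotype, in the order luminal, basal, stromal. How many of all probes separated basal from stromal arrays in this way is not given, so that gap cannot be called particular to Krt18.

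Krt7, the type II keratin of ductal and glandular linings, had log2 levels of 10.52, 10.26 and 10.47 in WT luminal, 6.27, 6.75 and 7.07 in WT basal, and 7.02, 7.75 and 6.48 in WT stromal cells. In null cells it read 9.86, 10.44 and 10.75 in luminal, 6.15, 7.44 and 7.65 in basal, and 6.02, 6.88 and 7.09 in stromal cells. Basal and stromal arrays overlapped, and all luminal arrays stood above them. The basal and stromal readings of Krt7 were still above the dimmest detected probe, which lay between 4.66 and 5.12 on the log2 scale depending on the array.

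Krt19, a type I keratin with almost no tail domain, had log2 levels of 11.26, 11.13 and 11.14 in WT luminal, 8.13, 8.33 and 7.85 in WT basal, and 8.86, 8.51 and 7.46 in WT stromal cells. In null cells it read 10.70, 11.29 and 11.34 in luminal, 8.86, 9.36 and 9.37 in basal, and 8.47, 8.08 and 8.50 in stromal cells. WT basal and WT stromal arrays overlapped. Null basal arrays lay above all null stromal and all WT basal arrays. Null basal arrays lay above WT basal arrays for 6.24% of all tested probes, and the like share against null stromal arrays is not given.

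**Figure D1:**
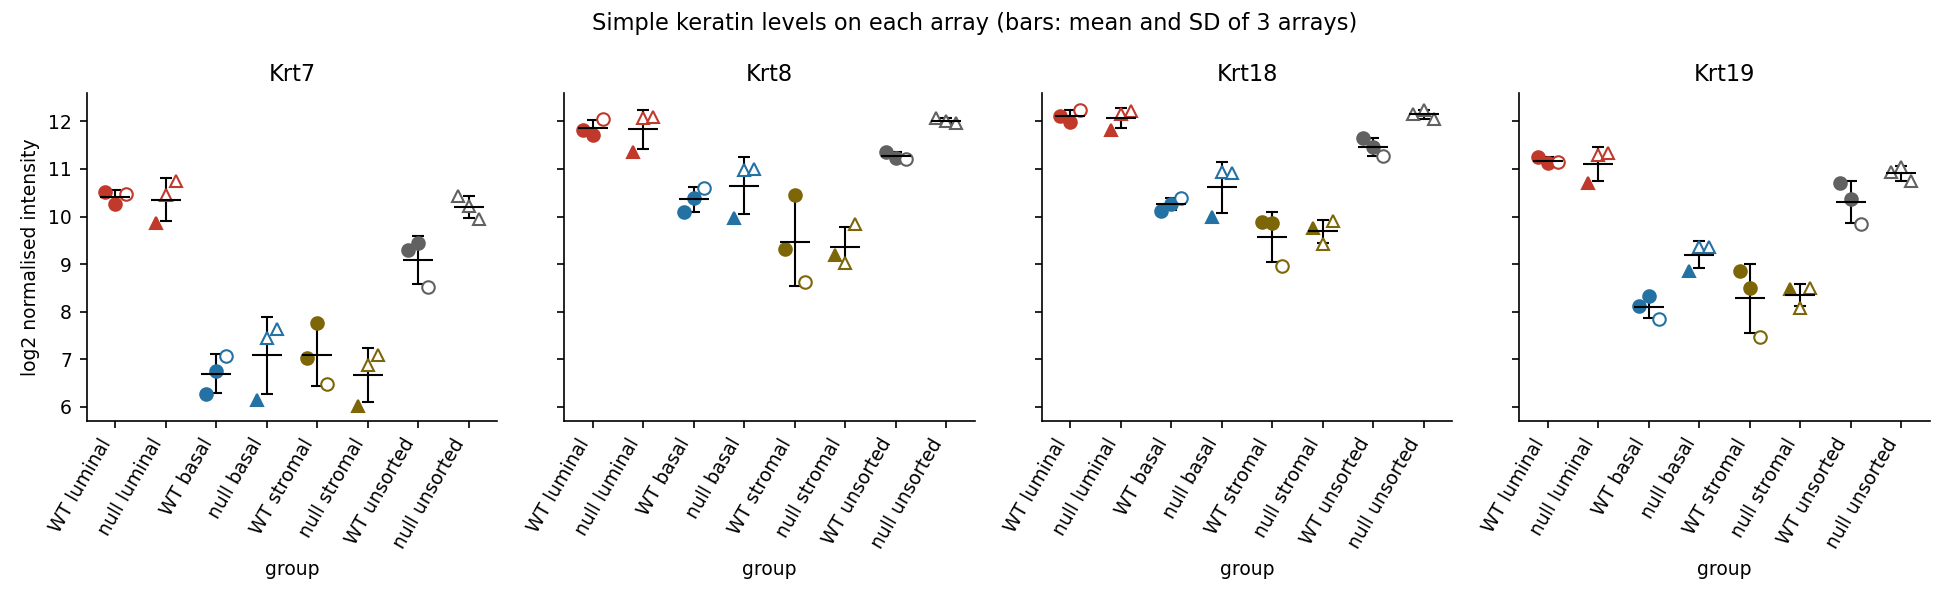
Normalised log2 intensity of each simple keratin on each of the 24 arrays, 1 panel per gene, with the mean and SD of the 3 arrays of each group as bars. Circles are WT and triangles null arrays; filled symbols are the 11 arrays on one side of the unlabelled split and open symbols the 13 on the other. Luminal arrays are above basal and stromal arrays in every panel, and the 3 null basal points of Krt19 (8.86 to 9.37) are above the 3 WT basal points (7.85 to 8.33).

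Ordered by mean, luminal and null unsorted cells took the top 3 places for all 4 genes. WT unsorted cells came next, overlapping neither the group ranked just above them nor the one just below. For Krt19, WT unsorted replicate 1 lay above null luminal replicate 1. In the lower groups, neighbours mostly overlapped. For Krt7, the 4 basal and stromal groups overlapped from one to the next. For Krt8, null basal overlapped WT basal and WT basal overlapped WT stromal. For Krt18 a gap lay between WT basal and null stromal cells, and for Krt19 a gap lay between null basal and null stromal cells.

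The first comparison asks how far luminal cells differ from the other sorted populations. In WT mice all 4 simple keratins were higher in luminal than in basal cells, against 6.78% of the 17878 probes tested that were called higher (limma, adjusted p below 0.05 after Benjamini-Hochberg adjustment over all tested probes). The log2 difference was 3.72 ± 0.39 (SE) for Krt7 (adjusted p = 2.21e-06), which is 13.2-fold. It was 3.07 ± 0.29 for Krt19 (adjusted p = 7.51e-07), 8.42-fold, 1.85 ± 0.26 for Krt18 (adjusted p = 3.68e-05), 3.61-fold, and 1.50 ± 0.35 for Krt8 (adjusted p = 0.00564), 2.83-fold. The Krt8 difference was 1.53 on the 11-array side of the split (adjusted p = 0.0361, 2 arrays a group) and 1.44 on the 13-array side (adjusted p = 0.09), where each group has 1 array. In null mice all 4 were again higher in luminal cells, with 4.51% of probes called higher. The log2 differences there were 3.27 for Krt7, 1.91 for Krt19, 1.45 for Krt18 and 1.19 ± 0.35 for Krt8 (adjusted p = 0.0335). The null Krt8 call was lost without null basal replicate 1, where the difference fell to 0.85 (adjusted p = 0.187), without null luminal replicate 2 (1.08, adjusted p = 0.12) and without null luminal replicate 3 (1.07, adjusted p = 0.126). It was also lost at the same difference without the detection filter and in a fit of only those 6 arrays. On the 13-array side of the split, with 2 arrays a group, it was 1.08 (adjusted p = 0.0471), and on the 11-array side, with 1 array a group, it was 1.41 (adjusted p = 0.211).

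Against stromal cells, all 4 were higher in luminal cells in both genotypes, with 11.2% of probes called higher in WT and 11.8% in null cells. The WT log2 differences were 3.33 for Krt7, 2.90 for Krt19, 2.54 for Krt18 and 2.39 for Krt8, with adjusted p from 6.53e-07 to 3.21e-05. The null values were 3.69, 2.76, 2.37 and 2.49 in the same order of genes.

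Basal against stromal cells split the 4 genes. In WT cells 0 of 4 passed limma's test, against 7.79% of probes called higher. At an unadjusted p below 0.05, 2 of 4 were higher in basal cells, as were 2549 of the 17878 probes tested. The log2 differences were 0.89 ± 0.35 for Krt8 (adjusted p = 0.0963), 0.69 ± 0.26 for Krt18 (adjusted p = 0.0747), -0.38 for Krt7 and -0.18 for Krt19. Without WT stromal replicate 2, Krt8 passed at 1.39 (adjusted p = 0.00406). On the 11-array side of the split, with 2 arrays a group, Krt8 was at 0.35 and Krt18 at 0.32. On the 13-array side, with 1 array a group, they were at 1.97 and 1.42. In null cells 3 of 4 were higher in basal than stromal cells, against 9.74% of probes called higher: Krt8 by 1.30 ± 0.35 (adjusted p = 0.0111), Krt18 by 0.92 ± 0.26 (adjusted p = 0.0122) and Krt19 by 0.85 ± 0.29 (adjusted p = 0.0469). Krt7 was at 0.42 (adjusted p = 0.529). None of these 3 calls remained when null basal replicate 2, null basal replicate 3 or null stromal replicate 2 was left out, or with median scaling. On the 13-array side of the split, with 2 arrays a group, all 3 passed at 1.56 for Krt8, 1.26 for Krt18 and 1.07 for Krt19. On the 11-array side, with 1 array a group, they were at 0.77, 0.24 and 0.39 and did not pass. The mean over both genotypes, a comparison chosen after these values were seen, gave 1.09 ± 0.25 for Krt8 (adjusted p = 0.00189) and 0.80 ± 0.18 for Krt18 (adjusted p = 0.00159), with 15.5% of probes called higher. Krt7 (0.02 ± 0.28, 95% interval -0.56 to 0.59) and Krt19 (0.33 ± 0.21, interval -0.10 to 0.77) did not pass there. The 14 luminal markers had a median basal over stromal difference of -0.25 in WT cells, where 1 passed as higher and 2 as lower. In null cells the median was 0.46, where 3 passed as higher and 2 as lower. Their part in the keratin values was not tested.

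**Figure D2:**
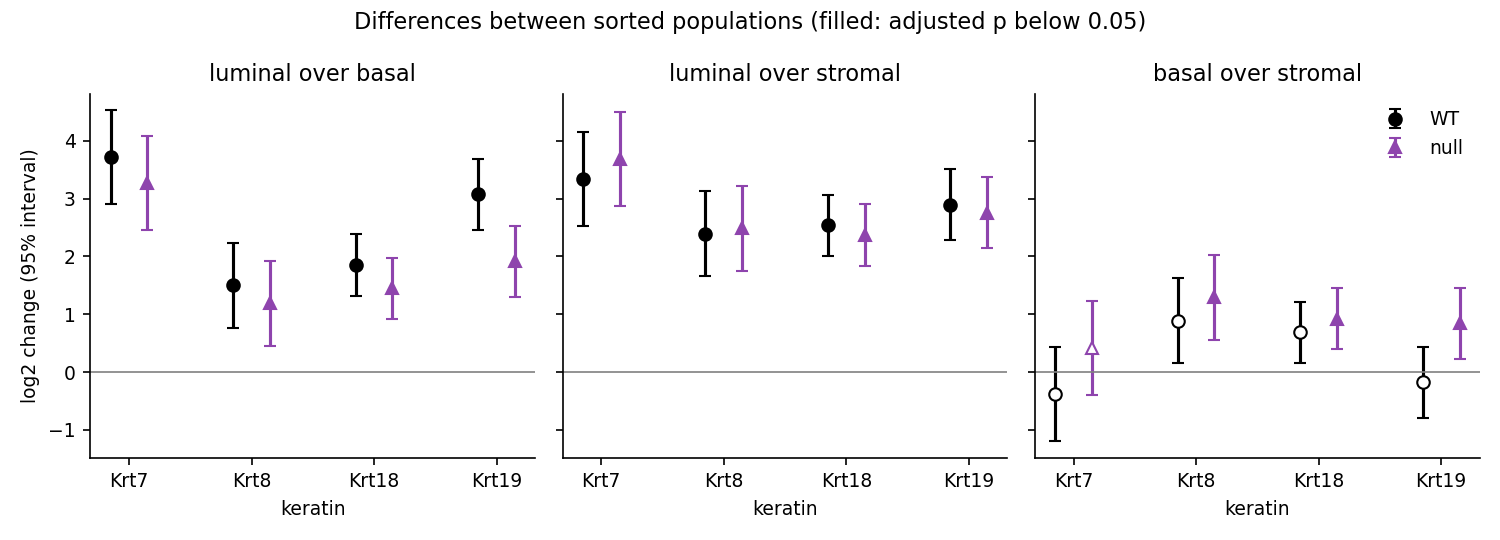
Log2 difference of each simple keratin between sorted populations, with 95% intervals from the fit, for WT (circles) and null (triangles) cells. Symbols are filled where the adjusted p was below 0.05. All 8 values pass in each of the luminal panels, while in the basal over stromal panel 3 null values pass and 0 WT values do.

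The luminal over basal difference was not of one size. The log2 ratio of a pair of keratins was taken within each array and compared between 6 luminal and 6 basal arrays, with an exact two-sided permutation test within genotype (400 relabelings, smallest possible p = 0.005, adjusted over 6 pairs). This test was chosen after the values were seen. The difference of Krt7 exceeded that of Krt8 by 2.15 log2 units and that of Krt18 by 1.85 (exact permutation test, both adjusted p = 0.006). That of Krt19 exceeded that of Krt8 by 1.15 and that of Krt18 by 0.84 (exact permutation test, both adjusted p = 0.006). The excess of Krt7 over Krt19 was 1.00 (exact permutation test, adjusted p = 0.01). Between the partners Krt18 and Krt8 the gap was 0.30, with the larger difference in Krt18 (exact permutation test, adjusted p = 0.006). The size of some gaps differed between the genotypes: that of Krt7 over Krt19 was 0.65 in WT and 1.36 in null mice, and that of Krt19 over Krt8 was 1.57 in WT and 0.72 in null mice (not tested). Without background correction all 6 differences had the same sign, but the excess of Krt7 over Krt8 was 1.52, that over Krt18 1.22 and that over Krt19 0.55. Probes can differ in how their signal follows the amount of RNA, so such gaps describe these probes. Against stromal cells Krt8 and Krt18 differed by 0.01 (exact permutation test, adjusted p = 0.94), and Krt7 exceeded Krt8 by 1.07 (adjusted p = 0.015), or by 0.53 without background correction.

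Within groups the 4 genes moved together from array to array. Over the 24 arrays, deviations from the group mean had Pearson correlations of 0.84 for Krt8 with Krt18, 0.82 for Krt18 with Krt19, 0.81 for Krt7 with Krt8, 0.76 for Krt7 with Krt18, 0.60 for Krt8 with Krt19 and 0.55 for Krt7 with Krt19. These are descriptions over arrays that share normalisation and RNA preparation. Most groups also have arrays on both sides of the unlabelled split. The like correlations of other probes are not given, so the joint movement cannot be called particular to these genes.

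The second comparison asks what the loss of Snai2 does in each population. In luminal cells the group means of the 4 genes stayed close to WT. Of the 4, 0 passed limma's test (0 with an unadjusted p below 0.05), against 0.00559% of probes called in either direction. The null over WT log2 differences were -0.07 for Krt7 (95% interval -0.88 to 0.75), -0.02 for Krt8 (-0.76 to 0.72), -0.05 for Krt18 (-0.58 to 0.48) and -0.07 for Krt19 (-0.68 to 0.55). Changes as large as these bounds could not be told from none with 3 arrays a group. The luminal differences of Krt7, Krt8, Krt18 and Krt19 also varied with the split. They were -0.53, -0.40, -0.23 and -0.50 on the 11-array side (1 null, 2 WT arrays). On the 13-array side (2 null, 1 WT) the luminal values were 0.13, 0.03, -0.07 and 0.18. In stromal cells 0 of 4 passed (0 with an unadjusted p below 0.05, 0.0224% of probes called). The log2 differences ran from -0.42 for Krt7 (95% interval -1.23 to 0.39) to 0.11 for Krt18 (-0.42 to 0.65). No stromal direction held on both sides of the split. The differences of Krt7, Krt8, Krt18 and Krt19 were -1.36, -0.69, -0.13 and -0.21 on the 11-array side (1 null, 2 WT arrays). On the 13-array side (2 null, 1 WT) they were 0.51, 0.80, 0.69 and 0.82.

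In basal cells the largest of the 4 differences was that of Krt19. Its log2 level was 9.20 ± 0.29 in null and 8.10 ± 0.24 in WT basal cells (SD, n = 3 each), a difference of 1.09 ± 0.29 (95% interval 0.48 to 1.71), which is 2.13-fold. The 3 null arrays lay above the 3 WT arrays, as they did for 6.24% of all tested probes. The difference did not pass limma's test over all probes (unadjusted p = 0.00132, adjusted p = 0.12), in a comparison where 0.666% of probes were called in either direction. It passed with array weights (1.17, adjusted p = 0.00478) and in none of the other 16 alternatives, over which the adjusted p ran up to 0.551. On the 11-array side of the split it was 0.63, from 1 null and 2 WT basal arrays, and on the 13-array side 1.51, from 2 null and 1 WT. Krt7 (0.38 ± 0.39), Krt18 (0.35 ± 0.26) and Krt8 (0.29 ± 0.35) did not pass either, with adjusted p of 0.911 to 1, and no direction held on both sides of the split. Their differences were -0.36, -0.21 and -0.28 on the 11-array side and 0.47, 0.53 and 0.39 on the 13-array side.

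The null effect on Krt19 was 1.16 ± 0.42 log2 units larger in basal than in luminal cells (interval 0.29 to 2.03, unadjusted p = 0.0112, adjusted p = 1 in limma). In that comparison 0.151% of probes were called, and Krt7, Krt8 and Krt18 were at 0.45, 0.31 and 0.40 (adjusted p = 1 each). The corresponding difference between basal and stromal cells, a comparison added after the values were seen, was 1.02 ± 0.42 for Krt19 (adjusted p = 0.792, 0.145% of probes called).

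Other markers differed between the same basal arrays. The 14 luminal markers averaged 6.91, 7.34 and 7.18 in null and 6.50, 7.12 and 6.16 in WT basal cells on the log2 scale, so the groups overlapped. Of them 9 were higher in null basal cells by sign, 1 passed as higher and 0 as lower, with a median of 0.28. The 10 endothelial markers averaged 5.20 ± 0.15 in null and 6.46 ± 0.91 in WT basal cells, with 0 of 10 higher in null by sign and 1 passing. The 12 fibroblast markers averaged 7.03 ± 0.23 against 7.76 ± 0.24, and 0 passed. The 5 Schwann cell markers averaged 5.27 ± 0.13 against 6.28 ± 0.19, with 1 of 5 higher in null basal cells by sign and 2 passing as lower. The part of other cells in the Krt19 value was not tested.

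**Figure D3:**
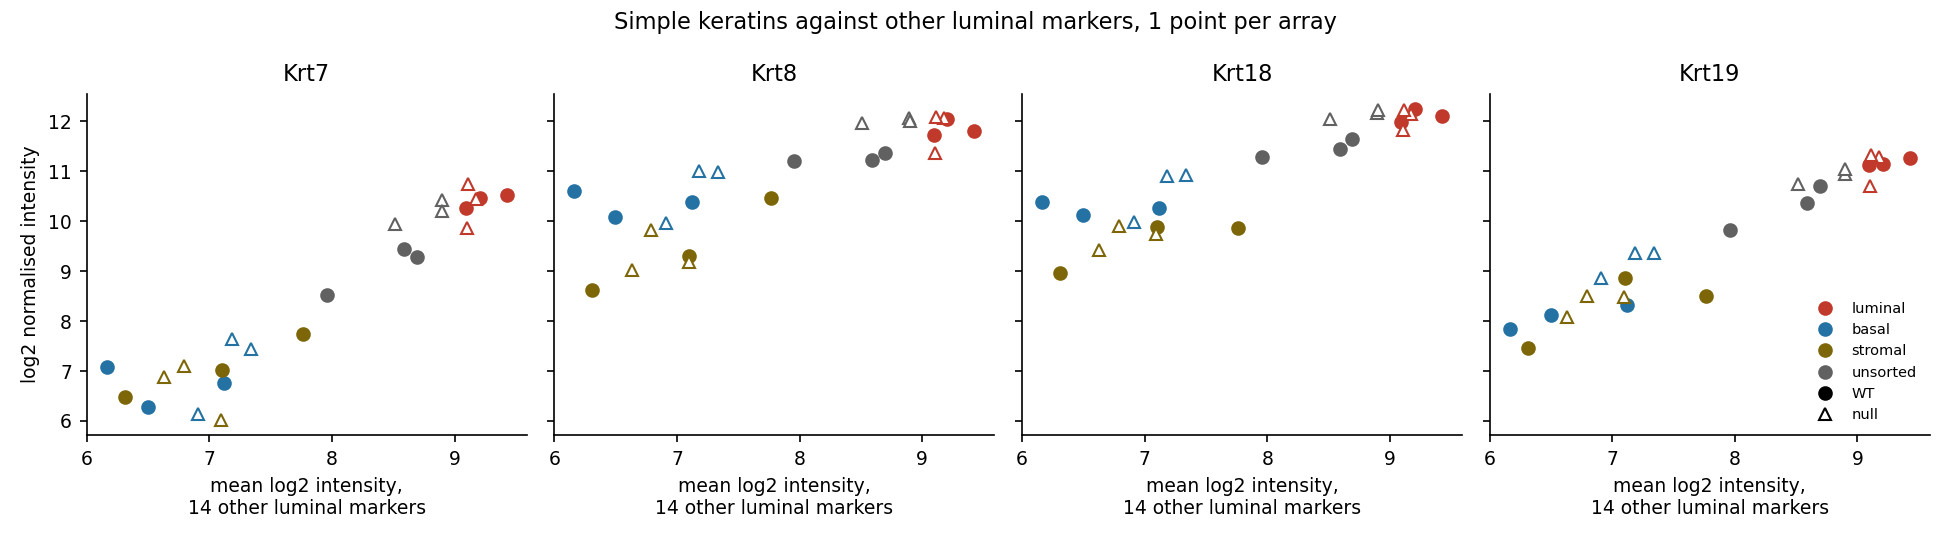
Normalised log2 intensity of each simple keratin (vertical axis) against the mean log2 intensity of 14 other luminal markers (horizontal axis), 1 point per array, filled circles for WT and open triangles for null. Luminal arrays sit at the upper right of every panel with marker means near 9.24 (WT) and 9.13 (null). For Krt18 all basal arrays sit above all stromal arrays. For Krt8 they do so apart from WT stromal replicate 2 (10.46), which lies inside the basal range. Whether a like marker mean stands for a like content of luminal cells was not tested.

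In unsorted cells all 4 null over WT differences were positive. Krt7 read 9.29, 9.45 and 8.52 in WT and 10.43, 10.21 and 9.95 in null unsorted cells on the log2 scale. Krt8 read 11.36, 11.22 and 11.21 in WT and from 11.97 to 12.07 in null. Krt18 read 11.65, 11.45 and 11.28 in WT and 12.16, 12.23 and 12.05 in null, and Krt19 read 10.71, 10.37 and 9.83 against 10.94, 11.04 and 10.74. For all 4 genes the null arrays lay above the WT arrays, which was so for 9.1% of all tested probes. The differences were 1.11 ± 0.39 for Krt7 (adjusted p = 0.266), 0.75 ± 0.35 for Krt8 (0.441), 0.69 ± 0.26 for Krt18 (0.294) and 0.60 ± 0.29 for Krt19 (0.461). Thus 0 of 4 passed limma's test, and 0.257% of probes were called in either direction. An unadjusted p below 0.05 was found for 3 of 4, and for 1984 of the 17878 probes tested, in either direction.

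In unsorted cells a larger share of luminal cells and more keratin RNA per cell cannot be told apart. The genotypes also differed in their place on the unlabelled split. All 3 null unsorted arrays lay on its 13-array side, with 1 WT unsorted array, while 2 WT unsorted arrays lay on the 11-array side. The split and the genotype therefore cannot be fully separated in this comparison. The markers of other cell types moved too. The 8 macrophage markers averaged 5.85 ± 0.77 in null and 7.79 ± 0.46 in WT unsorted cells, with 0 of 8 higher in null by sign and 4 passing as lower. The 12 fibroblast markers averaged 9.14 ± 1.06 against 10.12 ± 0.35 and the 10 endothelial markers 7.13 ± 0.12 against 7.85 ± 0.61, with 0 passing in either list. The 14 luminal markers averaged 8.77 ± 0.22 against 8.41 ± 0.40, with 11 of 14 higher in null by sign and 0 passing. Their part in the keratin differences was not tested.

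**Figure D4:**
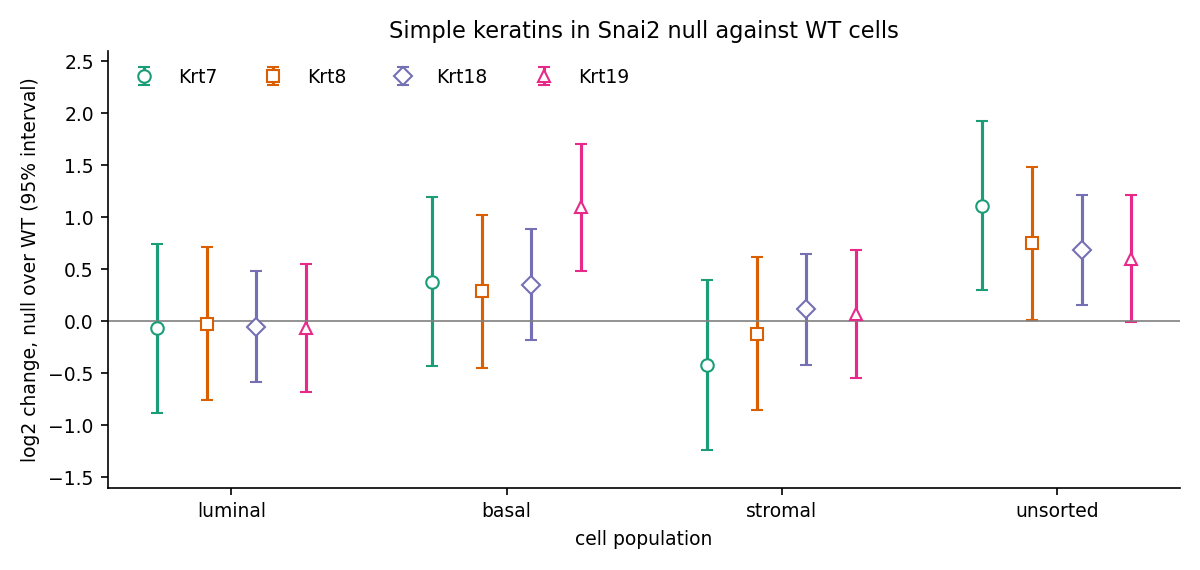
Log2 difference of null over WT for each simple keratin in the 4 populations, with 95% intervals; open symbols mark values whose adjusted p was not below 0.05, which is all of them. The luminal values lie between -0.07 and -0.02, Krt19 stands apart in basal cells at 1.09, and all 4 unsorted values are above 0.

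Unsorted cells were also compared with the sorted luminal cells of the same genotype. In WT mice all 4 keratins were higher in every luminal array than in every unsorted array, as for 13.6% of probes. By limma's test 1 of 4 passed, with 1.5% of probes called higher. That was Krt7 at 1.33 ± 0.39 (adjusted p = 0.0405), a call that was lost when any array but WT unsorted replicate 2 was left out (adjusted p up to 0.237). Krt19 was at 0.87 ± 0.29 (adjusted p = 0.0832, and 0.0306 with the replicate number as a block), Krt18 at 0.65 ± 0.26 (adjusted p = 0.148) and Krt8 at 0.60 ± 0.35 (adjusted p = 0.406). In null mice the luminal over unsorted log2 differences were 0.15, -0.17, -0.08 and 0.20 for Krt7, Krt8, Krt18 and Krt19, and 0 passed (0 with an unadjusted p below 0.05, 0.201% of probes called higher). Whether this comparison differed between the genotypes was not tested.

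Other keratins followed other patterns. The 4 basal keratins Krt5, Krt14, Krt15 and Krt17 were all lower in WT luminal than basal cells, with a median log2 difference of -2.75 against -0.0023 over all tested probes. The WT log2 level of Krt5 was 11.30 ± 0.12 for basal, 8.19 ± 0.54 for luminal and 5.72 ± 0.65 for stromal cells, and that of Krt14 was 12.35 ± 0.04, 10.28 ± 0.28 and 8.04 ± 0.90. All 4 basal keratins were higher in luminal than stromal cells, with a median of 2.36, as were the 4 simple keratins. Of 42 further keratins on the array 22 had a tested probe, and 1 was higher and 3 lower in WT luminal than basal cells. The higher one was Krt78 (2.13 ± 0.37, detected on 2 of 3 basal arrays). The lower ones were Krt42 (-2.83 ± 0.46), Krt23 (-2.02 ± 0.50, detected on 2 of 3 luminal arrays) and Krt71, which was not well above background on the luminal arrays and was at least 1.70-fold lower there. Against stromal cells Krt78 was higher by 2.05 (detected on 1 of 3 stromal arrays), while Krt36 and Krt75 were lower.

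**Figure D5:**
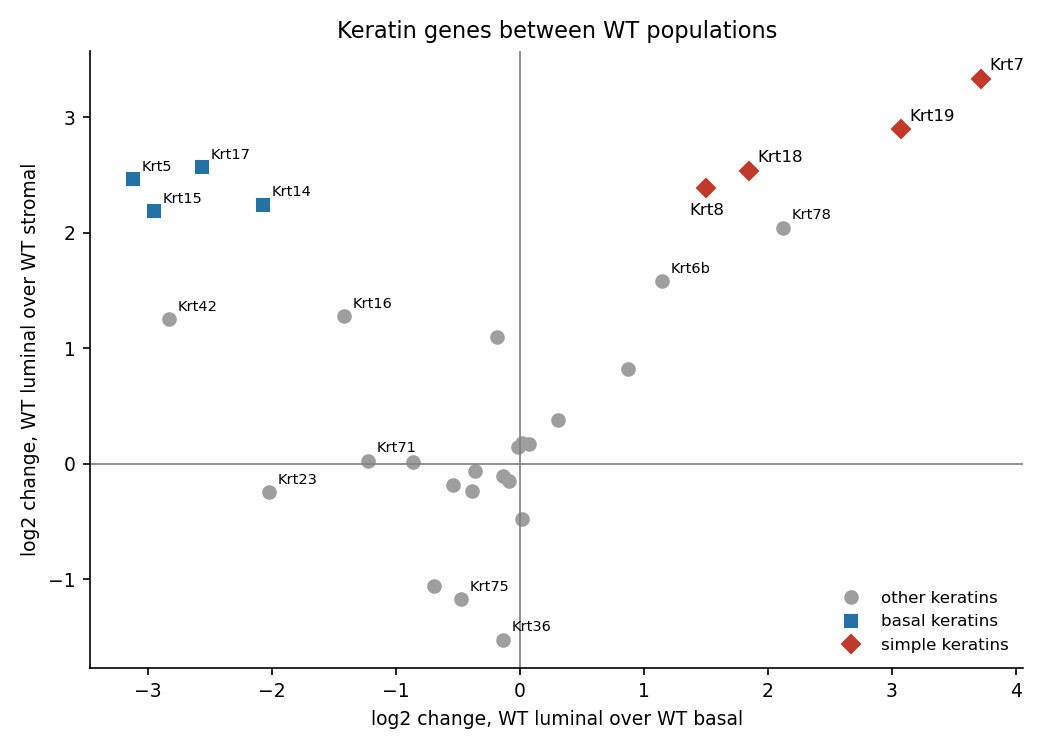
Log2 difference of WT luminal over WT basal cells (horizontal axis) against that of WT luminal over WT stromal cells (vertical axis) for the keratin genes with a tested probe, 1 point per gene. Both axes share the luminal arrays. The simple keratins (diamonds) are at the upper right, the basal keratins (squares) are higher than stromal but lower than basal cells, and most other keratins (circles) lie near 0.

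Among genes for linkers and other partners of keratins, 12 of 14 were tested, and in WT luminal over basal cells 2 were higher and 2 lower. Pkp2, a desmosomal plaque protein, was higher by 3.25 ± 0.28, with 1 of 3 WT basal arrays detecting it, and Ppl, the linker periplakin, by 1.59 ± 0.35. Pkp1, another desmosomal plaque protein, was lower (-2.01 ± 0.33), as was Dst (-0.86 ± 0.22), which encodes the hemidesmosomal linker dystonin. Against stromal cells 8 of 12 were higher and 0 lower, among them Pkp2 (2.88) and Fam83h (2.83), each detected on 2 of 3 stromal arrays, Pkp3 (2.80) and Jup, the junction protein plakoglobin, at least 3.79-fold. Of 8 tested other intermediate filament genes, 3 were lower in luminal than basal cells: Synm (-2.33 ± 0.68), Vim (-1.75 ± 0.39) and Nes, at least 1.50-fold. Vim, the vimentin of mesenchymal cells, had a log2 level of 9.97 ± 0.64 in WT stromal, 8.67 ± 0.15 in WT basal and 6.92 ± 0.10 in WT luminal cells, an order opposite to that of Krt18.

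Of 18 tested transcription factor genes of luminal cells, 10 were higher and 1 lower in WT luminal than basal cells, with a median log2 difference of 1.06. Cited1, a transcription coregulator, was at least 8.18-fold higher and Foxa1, a pioneer factor that works with the oestrogen receptor, at least 4.71-fold. The Ets-family factor genes Ehf and Elf5 were higher by 2.86 ± 0.43 and 2.82 ± 0.85, with Elf5 detected on 2 of 3 WT basal arrays. Against stromal cells 14 were higher and 1 lower. Among them were Grhl2 (3.17), Elf3 (2.97), Cited1 (2.73) and Gata3 (2.64), whose stromal levels were near background: Grhl2 and Cited1 were detected on 2 of 3 WT stromal arrays, and Elf3 and Gata3 on 1 of 3.

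In null over WT basal cells, where none of the 4 simple keratins passed, 1 linker and 1 further keratin did. Pkp2 had log2 levels of 7.99 ± 0.10 in null basal and 4.79 ± 0.22 in WT basal cells, a difference of 3.20 ± 0.28 (adjusted p = 1.3e-06), but it was detected on 1 of 3 WT basal arrays, so the WT level is close to background. Its level in WT luminal cells was 8.04 ± 0.34, on 3 of 3 arrays. Krt73, a keratin of the hair follicle's inner root sheath, was higher by 3.05 ± 0.48 (adjusted p = 0.00174) and was detected on 1 of 3 WT and 3 of 3 null basal arrays. Of the 4 basal keratins and the 18 luminal transcription factors 0 passed.

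The genes most like each simple keratin were taken by Pearson correlation of log2 intensity over the 24 arrays among 12552 genes. These values describe arrays that share their groups. For Krt8 they included Ccdc120 (0.958), Slc9a3r1, Capsl and Galnt3 (0.942), and for Krt18 Slc9a3r1 (0.961), Plcg2, LOC100048733 and Samd5 (0.949). For Krt7 they were Sptlc3 (0.966), LOC100048733, Cxcl15, Liph and Ehf (0.947), and for Krt19 LOC100048733 (0.962), Areg, Cadps2, Hid1 and Rhov (0.953). By Spearman correlation 6 of the 20 places kept their gene, and without background correction 15 did.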

How the data were processed

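The authors deposited linear probe intensity, neither normalised nor background-subtracted, for 25697 probes on 24 arrays, as the file headers and the values show. Detection p-values, in steps of 1 over 798, were deposited in columns next to the intensities. A second deposited table held linear intensity that differed from a quantile normalisation of the first by 0.0124 log2 units or less (its array medians were 111.8 to 112.03), and served only as an alternative. The scanner software is not given in the sources used here.

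Intensities were background-corrected from the detection p-values, quantile-normalised and put on the log2 scale with limma's neqc (offset 16; limma 3.58.1, R 4.3.3). Probes with a detection p below 0.05 on at least 3 arrays were tested, which left 17878. A single limma fit over the 8 groups gave two-sided moderated tests, adjusted by Benjamini-Hochberg over all tested probes within each comparison. The procedure was tested on simulated data. A gene of a list was represented by its tested probe with the highest mean. Counts of list genes given as higher or lower are of those that passed, unless given by sign. From each list up to 4 genes with the largest difference among those that passed were named in WT luminal over basal, WT luminal over stromal and null over WT basal, with Krt5, Krt14 and Vim always, and likewise the 5 genes most like each simple keratin, of which 1 gene is not reported here. The 4 genes, the lists, the markers and these rules were chosen with earlier results of these data known. Where a probe was above background on no array of one group, the difference is given as at least a fold, from the lowest detected signal of each array. A probe above background on only some arrays of a group keeps its difference. The number of arrays that detected it is then given, and such a difference rests partly on values near background. The number of arrays limits the precision, with a median SE of 0.30 over all probes. Probe symbols are those of the array file, of which 20733 were current in RefSeq, 3872 were older synonyms, 1060 did not match and 32 had turned into dates or numbers.

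Same-numbered arrays of 1 genotype were checked for shared deviations from their group means: 24 of 36 pairs of arrays correlated above 0.1 (range -0.08 to 0.50), including all 18 WT pairs but not all null pairs. Between genotypes 7 of 12 did. The numbers were taken to pair the WT arrays only, but the check does not show such a pairing. All WT groups had the same replicate numbers on the same side of the unlabelled split. A pairing and the split therefore cannot be told apart in these correlations. Alternatives were no background correction, median scaling, the second table, no detection filter, 1 probe a gene, only the groups compared, array weights, the replicate number as a block, the unlabelled split as a term and each of its sides alone, and each array left out.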

Additional observations from a re-analysis of the deposited data

How the results depend on the processing

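Each of 13 comparisons was repeated under every alternative, and the count of simple keratins that passed stayed within 1.5 times its value in 204 of 225 repeats. A fall from 4 to 3 is within that bound. The losses of the null Krt8 luminal over basal call given above are therefore not among the moves. The 4 keratins stayed higher in luminal than stromal cells throughout, and no called difference changed sign. In WT basal over stromal cells the count of 0 became 1 with array weights and 2 on the 13-array side of the split, where each group has 1 array, and ranged from 0 to 1 with an array left out. In null basal over stromal cells the count of 3 became 0 with median scaling and 0 on the 11-array side of the split, where each group has 1 array, and ranged from 0 to 3 with an array left out. With median scaling that comparison called 2623 probes, 991 of them higher, in place of 3588 with 1742 higher. In null over WT basal cells the count of 0 became 1 with array weights. In WT luminal over unsorted cells the count of 1 became 2 without background correction, 2 in the second table, 0 without the detection filter, 3 with array weights, and 0 on either side of the split (2 or 1 arrays a group), and ranged from 0 to 1 with an array left out. The replicate block made that count 2 and changed no other count of keratins. A group with 1 array was assumed to vary like the other groups. The cause of these moves was not tested.

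Counts over all probes moved more. From lowest to highest over the alternatives that leave out no single array, probes called were 532 to 3539 in WT luminal over basal (2434 as reported), 577 to 3023 in null luminal over basal (1812), 1684 to 5392 in WT luminal over stromal (4047), 1 to 889 in null over WT basal (119) and 0 to 475 in null over WT unsorted cells (46). With an array left out the last 2 ranged from 56 to 237 and from 13 to 656. The 656 came without null unsorted replicate 3 and the 237 without WT basal replicate 3. In null over WT basal cells 59 of 91 calls were higher without background correction, against 63 of 119. Median scaling moved the median over all probes in null over WT unsorted cells to 0.16, where Krt7 was at 1.43, Krt8 at 1.02, Krt18 at 0.96 and Krt19 at 0.90, and it called 18 probes with 5 higher against 46 with 7. With it the null over WT luminal differences of Krt8, Krt18 and Krt19, none of them called, were 0.09, 0.09 and 0.02. All arrays of null unsorted cells lay on one side of the split, so the other side gave no value.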
